A study of Danio rerio with 15 samples.

Results

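The genes of ubiquitin conjugation and deubiquitination were examined in the liver of adult male zebrafish after radiation. They were chosen by symbol: a gene was taken if its symbol began with ube1 to ube4, uba, usp, uchl, otu, ubr, cul, fbxo, fbxl, fbxw, rnf, cops, sumo or nedd, the letters of ube, uba, usp, ubr, cul, rnf and cops being followed by a digit. This gave 152 of the 8793 genes that had a probe set of 1 symbol on the array, and a gene with several probe sets was read from the one with the highest mean over the arrays. The choice itself used symbols and no expression values, and it was made with earlier results of these data known. By symbol, 27 were E2 conjugating enzymes, 4 were E1 activating enzymes, 35 were RING finger proteins, 30 were F-box proteins, 6 were cullins, 6 were HECT, U-box or N-recognin ligases, 7 were subunits of the COP9 signalosome, 33 were deubiquitinases and 3 were ubiquitin-like modifiers. The remaining gene was nedd1, a centrosomal protein that matches by its letters only, and usp6nl, counted with the deubiquitinases, encodes a Rab GTPase-activating protein. Neither of these entered a test.

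Ubiquitin is a small protein that cells attach to other proteins. An E1 enzyme activates it, an E2 enzyme carries it, and an E3 ligase chooses the substrate. Deubiquitinases remove it again, and the kind of chain built decides whether the substrate is degraded by the proteasome or changes its activity or partners. SUMO and NEDD8 are related modifiers with enzymes of their own. Ubiquitin enzymes act in the repair of broken DNA, in the turnover of p53 and in the disposal of misfolded proteins in the liver.

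The 5 groups were of AB background fish. Control fish (0 Gy) were not irradiated. In the long-term response groups, embryos were given 0.1 or 1.0 Gy of gamma rays at 24 hours post-fertilization and grown up, and in the acute response groups, fish were given 0.1 or 1.0 Gy as adults and taken 4 hours later. All livers came from males 16 weeks of age, each array held RNA pooled from 2 fish, and each group had 3 arrays, 15 in all. The embryos came from 3 breeding pairs and were pooled before they were divided. The replicates of a group were thus pools of fish raised as 1 batch. Males of the acute groups were drawn from the non-irradiated batch that also gave the controls. Irradiation of the embryos cannot be told apart from any difference between the batches, against control or against the adult groups. Handling of the controls to match the irradiation of adults was not described in the sources used here. P-values thus measure the spread between pools within a batch.

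Values are log2 intensities, and 1 unit is a doubling. In the fit, a gene was called in a comparison if limma's adjusted p (Benjamini-Hochberg, over the 8634 probe sets whose interquartile range reached 0.2) was under 0.05 both for the F-test over the 5 groups and for the comparison. Of the 152 genes, 107 (70.4%) passed this filter on the range, against 62.2% of all genes, and 45 did not. Array medians ran from 5.012 to 5.138, and no array pair was identical (correlations 0.962 to 0.9938). Hepatocyte markers defined the tissue in all groups, with array means from 12.82 to 13.3 over 19 genes, led by fabp10a. Trypsin and other exocrine pancreas genes were also present at array means of 8.71 to 11.98 over 12 genes, with values that ranged widely within groups.

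The submitted labels contain a conflict. For controls 2 and 3, and for the first and second adult pools given 0.1 Gy, the source name points to another group than title, dose and timing do. The latter were followed here for all 4 arrays. At rnf19a, control replicates 2 and 3 read 6.13 and 5.98, beside 6.03 in control replicate 1, and adult 0.1 Gy replicates 1 and 2 read 6.69 and 6.94, beside 6.93 in replicate 3. This gene was named because its groups stood apart under these labels, so its values cannot decide between title and source name. In other genes control replicate 1 differed from the other controls, as in uba1, with 8.53 beside 9.20 and 9.37. Each main count is given with and without these 4 arrays.

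Of the 107 genes tested, 56 were called between the acute response groups and control, 27 higher and 29 lower. Called in the long-term response groups were 36 genes, 23 lower and 13 higher, and between embryo and adult groups 44 were called, 20 higher in the embryo groups and 24 lower. With array medians subtracted the long-term split was 7 higher and 22 lower. The shares of all 5468 genes tested were 14.8% higher and 27.9% lower in the acute comparison, against 25.2% and 27.1% of the ubiquitin genes. In the long-term comparison they were 7.50% higher and 14.5% lower, against 12.1% and 21.5%. Between embryo and adult groups they were 23.1% higher and 13.0% lower, against 18.7% and 22.4%. The share lower in the acute groups was thus near that of all genes, and the differences in the other shares were not tested. The median difference over the 107 genes was -0.02 in the acute and -0.06 in the long-term comparison, against -0.04 and 0.03 over all genes, and it was -0.08 between embryo and adult groups, against 0.02.

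Counts of genes whose arrays did not overlap gave a second reading. All 6 adult arrays lay above all 3 controls in 31 genes and below them in 29, where 44.0% of all genes tested were apart. All 6 embryo arrays lay above the controls in 12 genes and below in 16, where 19.9% of all genes were apart. The 6 embryo arrays lay above all 6 adult arrays in 12 genes and below in 11, where 18.7% of all genes were apart.

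**Figure D1:**
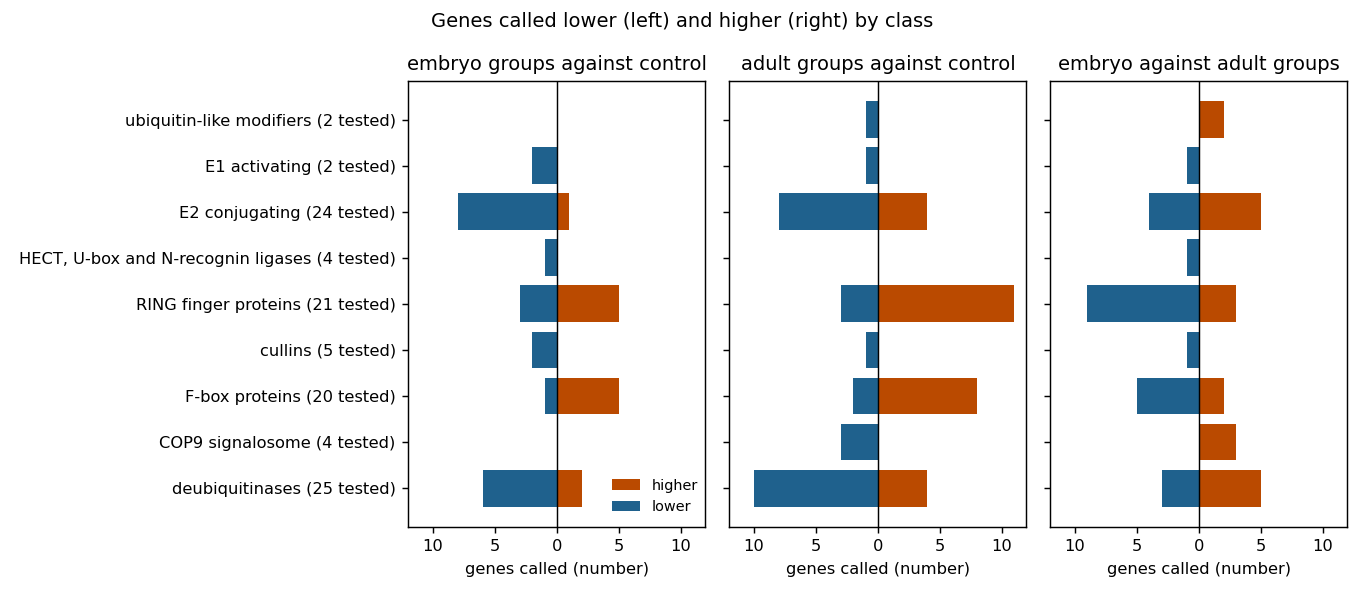
Number of genes called lower (bars to the left) and higher (bars to the right) in each class of ubiquitin genes, in the embryo groups against control, the adult groups against control and the embryo against the adult groups. In the adult groups 11 of 21 RING finger genes were higher, and 10 of 25 deubiquitinases and 8 of 24 E2 genes were lower. Of all genes tested, 14.8% were higher and 27.9% lower in the adult groups. All 15 arrays were used.

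The acute and long-term comparisons use the same 3 controls, so their values are given side by side and are not independent. Called in both were 29 genes, 17 lower and 12 higher, and 0 were called in opposite directions. Called in the acute groups only were 12 lower and 15 higher genes, and in the long-term groups only 6 lower genes and 1 higher gene, rnf103. Of the 107, 44 were called in neither. These patterns were not counted over all genes, so they show nothing particular to the ubiquitin genes. A call in 1 of the 2 comparisons does not show a difference between them, which the comparison of embryo with adult groups tests. That comparison also crosses the batches in which the fish were raised.

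The choice of controls mattered. Without the 4 arrays of conflicting source name, 17 of the 56 acute calls (9 higher, 8 lower) were kept. Of the 36 long-term calls 1 was kept (usp1, lower), and of the 44 calls between embryo and adult groups 25 were. With calls made anew, the shares of the ubiquitin genes called moved, in this order, from 52.3%, 33.6% and 41.1% to 15.9%, 0.9% and 26.2%. Over all genes they moved from 42.7%, 22.0% and 36.1% to 16.0%, 1.6% and 25.2%. The shares of the ubiquitin genes were then near those of all genes. The 17 acute calls were the higher genes ube2al, ube2d1b, fbxl5, fbxo9, rnf180b, rnf19a, rnf216, otud5a and usp44 and the lower genes usp1, usp33, ube2na, ube2nb, ube2kb, rnf145b, otulinb and cops5. All differences of called genes kept their sign. For the long-term comparison, leaving out control replicate 2 alone or control replicate 3 alone left 14 calls each, and leaving out control replicate 1 left 34. With control replicate 1 as the only control, 17 of the 36 long-term differences kept at least their size divided by 1.5, and 19 became smaller than that. Those 19 include uba1, usp33 and ube2kb, in which control replicate 1 lay nearer to the irradiated arrays than the other two controls. Of the acute differences 38 of 56 kept their size by this measure, and of those between embryo and adult groups 44 of 44. Without the 4 arrays these counts were 17 of 36, 40 of 56 and 43 of 44.

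**Figure D2:**
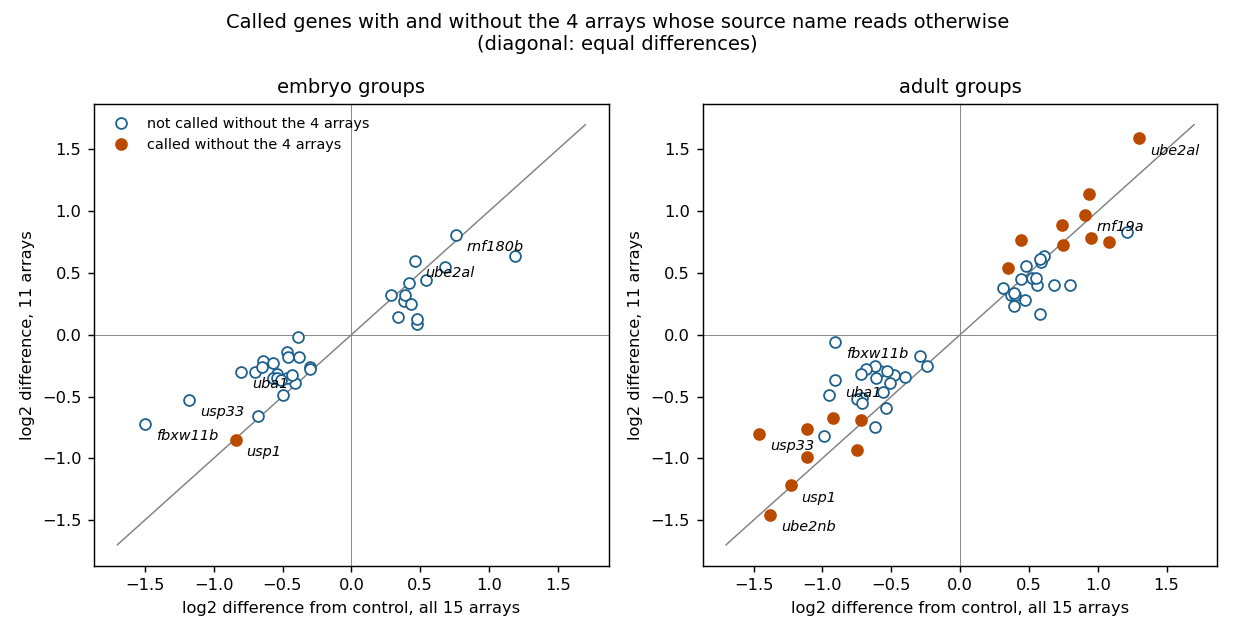
Log2 differences from control of the called genes with all 15 arrays (horizontal axis) and without the 4 arrays whose source name conflicts (vertical axis), for the embryo groups (left) and the adult groups (right). Points near the grey diagonal, such as usp1 (-0.84 and -0.85 in the embryo groups), kept their size, and uba1 (-0.80 and -0.30) lies toward zero.

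Among the E1 enzymes, uba1 and uba2 were tested. uba1, which activates ubiquitin for nearly all E2 enzymes, read 8.53, 9.20 and 9.37 in the controls, 8.05 to 8.35 (median 8.28) in the 6 embryo arrays and 7.89 to 8.37 (median 8.15) in the 6 adult arrays. All irradiated arrays lay below all controls. It fell by 0.80 ± 0.16 (SE) in the long-term groups (adjusted p = 0.0029 by limma) and by 0.91 ± 0.16 in the acute groups (adjusted p = 0.0004 by limma), 1.74-fold and 1.88-fold lower. These differences were -0.30 and -0.37, not called, without the 4 arrays.

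uba2, the catalytic subunit of the SUMO-activating enzyme, was lower in the long-term groups alone. It read 5.79, 5.86 and 5.73 in the controls, 5.17 to 5.53 (median 5.28) in the embryo arrays and 5.59 to 6.01 (median 5.77) in the adult arrays. The embryo arrays lay below all other arrays, and the adult arrays overlapped the controls. The difference was -0.50 ± 0.11 from control (adjusted p = 0.0054) and -0.48 ± 0.09 from the adult groups (adjusted p = 0.00085, limma). They were -0.49 and -0.45 without the 4 arrays, and the second was still called.

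The modifier genes tested were nedd8 and sumo3a, and sumo2b did not pass the filter. nedd8, which encodes the modifier of cullins, read 6.43, 6.19 and 6.29 in the controls, 6.30 to 6.63 (median 6.41) in the embryo arrays and 5.88 to 6.26 (median 6.09) in the adult arrays. It was higher in the embryo than in the adult arrays with no overlap, by 0.36 ± 0.08 (adjusted p = 0.0026 by limma), and was called in neither comparison with control. This call was lost without adult 1.0 Gy replicate 1, at 0.33. sumo3a fell by 0.58 ± 0.11 in the acute groups (adjusted p = 0.001 by limma).

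Of the 24 E2 genes tested, 8 were lower and 4 higher in the acute groups, and in the long-term groups 8 were lower and 1 was higher. The acute shares were 33.3% lower and 16.7% higher, against 27.9% and 14.8% of all genes tested. The long-term shares were 33.3% and 4.2%, against 14.5% and 7.50%. Here and in the classes below, differences from the shares of all genes were not tested, and all 15 arrays were used. Of the acute E2 calls, ube2na, ube2nb and ube2kb (lower) and ube2al and ube2d1b (higher) were kept without the 4 arrays of conflicting source name. None of the long-term E2 calls was kept. With all 15 arrays the median difference was -0.21 in the acute and -0.15 in the long-term groups. The E2 genes named here fall into those that build chains linked through lysine 63 of ubiquitin, those linked to degradation, and the ube2a and ube2d genes.

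The genes for the lysine 63 enzymes were lower in the adult groups. In mammals this enzyme is a pair of UBE2N, the active E2, with UBE2V1 or UBE2V2, inactive relatives that place the acceptor ubiquitin, and it serves DNA damage and innate immune signalling. ube2nb read 7.48, 7.45 and 7.55 in the controls, 6.92 to 7.49 (median 7.18) in the embryo arrays and 5.79 to 6.61 (median 6.08) in the adult arrays. The adult arrays lay apart from all others, while embryo arrays overlapped the controls. It fell by 1.38 ± 0.16 in the acute groups (2.6-fold, adjusted p = 1.5e-05 by limma), and the embryo groups were 1.1 ± 0.13 above the adult groups (adjusted p = 2.7e-05 by limma). The other copy, ube2na, read 7.97, 8.20 and 8.40 in the controls, 7.34 to 7.79 (median 7.70) in the embryo arrays and 7.09 to 7.44 (median 7.26) in the adult arrays. It was below all controls in both responses, by 0.57 ± 0.11 in the long-term (log2 difference -0.57) and 0.92 ± 0.11 in the acute groups (log2 difference -0.92), with adjusted p of 0.0031 and 2.7e-05 by limma.

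The partner genes moved the same way. ube2v1 fell by 0.61 ± 0.11 in the acute groups (adjusted p = 0.00045 by limma) and by 0.54 ± 0.11 in the long-term groups (adjusted p = 0.003 by limma), with all 12 irradiated arrays (7.25 to 7.71) below the controls (7.90, 8.10 and 8.27). ube2v2, named after its values were seen, fell by 0.40 ± 0.10 in the acute groups only (adjusted p = 0.0056 by limma), and this call was lost without control replicate 2, at -0.35. otub1b, whose mammalian homologue OTUB1 binds UBE2N and restrains it, read 6.55, 6.49 and 6.87 in the controls, 6.32 to 6.90 (median 6.65) in the embryo arrays and 5.37 to 5.90 (median 5.69) in the adult arrays. It fell by 0.99 ± 0.16 in the acute groups (adjusted p = 0.00025 by limma), and its embryo arrays overlapped the controls. Without the 4 arrays, ube2na (-0.67) and ube2nb (-1.46) were still called in the acute groups, while ube2v1 (-0.35), ube2v2 (-0.34) and otub1b (-0.82) were not.

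Among the other E2 genes, ube2kb and ube2l3b were lower in both responses. ube2kb, whose human homologue UBE2K builds the lysine 48 chains that target proteins for degradation, read 8.01, 8.63 and 8.58 in the controls, 7.51 to 7.90 (median 7.69) in the embryo arrays and 7.17 to 7.46 (median 7.29) in the adult arrays. The 3 sets of arrays did not overlap. It fell by 0.70 ± 0.13 in the long-term (adjusted p = 0.0017) and by 1.11 ± 0.13 in the acute groups (adjusted p = 1.5e-05, limma), and these were -0.30 and -0.76 without the 4 arrays, only the second of them called. ube2l3b, a homologue of the human E2 that serves HECT and RBR ligases, fell by 0.68 ± 0.16 in the long-term (adjusted p = 0.0081) and by 0.48 ± 0.16 in the acute groups (adjusted p = 0.022, limma). Its calls were lost without control replicate 3 (-0.63 and -0.43) or without embryo 1.0 Gy replicate 2 (-0.62 and -0.48).

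ube2d1b and ube2al rose in the adult groups. ube2d1b, of the UBE2D family of E2 enzymes that work with many RING ligases, read 6.48, 6.63 and 6.52 in the controls, 6.03 to 6.54 (median 6.33) in the embryo arrays, 7.69, 7.79 and 8.15 after 0.1 Gy in adults and 7.18, 6.97 and 7.14 after 1.0 Gy in adults. All adult arrays lay above all others, and those of the lower dose lay above those of the higher dose. It rose by 0.94 ± 0.12 in the acute groups (adjusted p = 3.2e-05 by limma), and the embryo groups lay 1.18 below the adult groups (log2 difference -1.18 ± 0.10, adjusted p = 2.2e-06 by limma). Its copy ube2d1a was not tested, with values from 7.37 to 7.84 in all arrays.

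ube2al, whose symbol marks it as like ube2a, read 8.41, 8.78 and 8.46 in the controls, 8.80 to 9.18 (median 9.01) in the embryo arrays and 9.34 to 10.51 (median 9.83) in the adult arrays. The 3 sets of arrays did not overlap. It rose by 1.30 ± 0.14 in the acute groups (2.46-fold, adjusted p = 1e-05 by limma) and by 0.46 ± 0.14 in the long-term groups (adjusted p = 0.031 by limma), the second call lost in 4 of 15 fits that left out 1 array (0.39 to 0.57). ube2a went the other way. Its mammalian homologue, an orthologue of yeast Rad6, ubiquitinates PCNA and histone H2B. It read 10.21, 10.54 and 10.73 in the controls and 9.52 to 9.94 (median 9.76) in the adult arrays. It fell by 0.75 ± 0.11 in the acute groups with no overlap (adjusted p = 0.00012 by limma). In the long-term groups it fell by 0.46 ± 0.11 (adjusted p = 0.0094 by limma), a call lost without control replicate 2 (-0.44) or 3 (-0.35). ube2a was named beside ube2al after its values were seen.

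**Figure D3:**
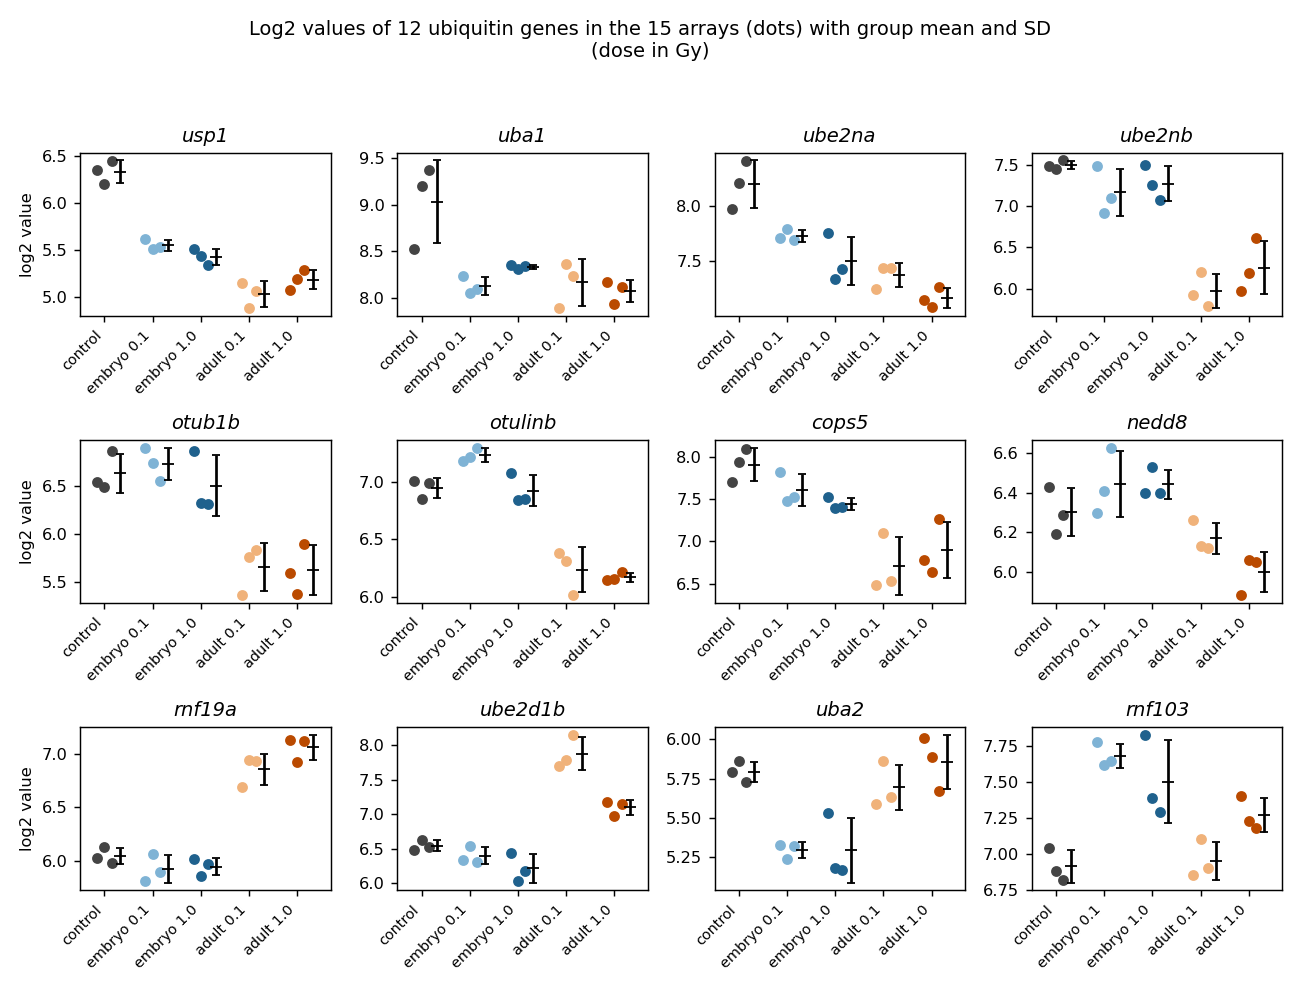
Log2 value (vertical axis) of 12 genes in each of the 15 arrays, by group on the horizontal axis with the dose in Gy, with the group mean and SD (n = 3) at the right of each set of dots. In ube2nb, otub1b, otulinb and rnf19a the 6 adult arrays stand apart from the other 9, while in uba2 the 6 embryo arrays stand below the rest.

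Of the 21 RING finger genes tested, 11 were higher and 3 lower in the acute groups, and in the long-term groups 5 were higher and 3 were lower. The acute shares were 52.4% higher and 14.3% lower, against 14.8% and 27.9% of all genes tested. The long-term shares were 23.8% and 14.3%, against 7.50% and 14.5%. The median difference was 0.37 in the acute and 0.15 in the long-term groups. Between embryo and adult groups 9 were lower and 3 higher, or 42.9% and 14.3%, against 13.0% and 23.1% of all genes tested.

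rnf19a and rnf216 were higher in the adult than in the embryo groups. rnf19a, a ligase of the RING-between-RING kind, read 6.03, 6.13 and 5.98 in the controls, 5.82 to 6.07 (median 5.93) in the embryo arrays and 6.69 to 7.13 (median 6.93) in the adult arrays. The embryo arrays overlapped the controls, and all adult arrays lay above both. It rose by 0.91 ± 0.10 in the acute groups (adjusted p = 7.5e-06 by limma) and by 0.97 without the 4 arrays, still called. rnf216, also a RING-between-RING ligase, read 6.12, 5.49 and 5.68 in the controls, 6.04 to 6.44 (median 6.25) in the embryo arrays and 6.49 to 7.22 (median 6.86) in the adult arrays, and rose by 1.08 ± 0.15 in the acute groups (adjusted p = 7.4e-05 by limma). Its long-term difference of 0.48 ± 0.15 was also called (adjusted p = 0.034 by limma), a call lost in 6 of 15 fits that left out 1 array (0.35 to 0.66), and its embryo arrays overlapped the controls. The embryo groups lay below the adult groups in both genes, with log2 differences of -1.01 for rnf19a and -0.60 for rnf216, both called.

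Some RING genes with known parts in DNA damage were among the smaller acute changes, and were named after their values were seen. rnf168, which ubiquitinates histone H2A next to DNA breaks in mammals, rose by 0.39 ± 0.10 (adjusted p = 0.0043 by limma), a call lost without control replicate 2 (0.35), control replicate 3 (0.40) or adult 0.1 Gy replicate 2 (0.35). rnf4, a ligase for SUMO-modified proteins, rose by 0.58 ± 0.12 (adjusted p = 0.0012) and rnf146, a ligase for proteins marked with poly(ADP-ribose), by 0.55 ± 0.10 (adjusted p = 0.0008, limma). rnf2, a ligase of Polycomb complexes for histone H2A, rose by 0.61 ± 0.13 (adjusted p = 0.0017 by limma). rnf8, which acts before rnf168 at breaks in mammals, did not pass the filter, at -0.12 ± 0.11 (adjusted p = 0.4 without the filter). None of the 4 tested was called in the long-term groups. Without the 4 arrays of conflicting source name, the acute differences of rnf168, rnf4, rnf146 and rnf2 were 0.23, 0.61, 0.46 and 0.64, and were not called. rnf20, a ligase for histone H2B, went the other way and is given below with the genes left out by the filter.

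rnf180b and rnf144b were higher in both responses and rnf103 in the long-term groups alone. rnf180b read 5.01, 4.99 and 5.18 in the controls, 5.53 to 6.05 (median 5.89) in the embryo arrays and 5.45 to 6.08 (median 5.86) in the adult arrays. All irradiated arrays lay above all controls. The differences were 0.76 ± 0.13 and 0.75 ± 0.13 (adjusted p = 0.0013 and 0.00042 by limma), and 0.81 and 0.73 without the 4 arrays, the second of them called. rnf103, a ligase of the endoplasmic reticulum membrane, read 7.04, 6.88 and 6.82 in the controls, 7.29 to 7.83 (median 7.64) in the embryo arrays and 6.85 to 7.40 (median 7.14) in the adult arrays. It rose by 0.68 ± 0.12 in the long-term groups (adjusted p = 0.0014 by limma) and was 0.48 ± 0.10 above the adult groups (adjusted p = 0.0015 by limma).

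The RING genes that fell were few. rnf181 fell by 0.95 ± 0.15 in the acute (adjusted p = 0.00024) and by 0.64 ± 0.15 in the long-term groups (adjusted p = 0.0094, limma), the second call lost without control replicate 2 (-0.58) or 3 (-0.48). rnf145b, whose mammalian homologue acts in sterol control of the endoplasmic reticulum, fell by 0.72 ± 0.11 in the acute (adjusted p = 0.00015) and by 0.47 ± 0.11 in the long-term groups (adjusted p = 0.0081, limma), the second call lost without control replicate 2 (-0.43). rnf145b was named after its values were seen. Of the 4 HECT, U-box and N-recognin genes tested, only ube4b was called. ube4b, a U-box ligase that lengthens ubiquitin chains, read 6.48, 6.66 and 6.61 in the controls, 6.0 to 6.30 (median 6.18) in the embryo arrays and 6.41 to 7.10 (median 6.82) in the adult arrays, and fell by 0.43 ± 0.10 in the long-term groups (adjusted p = 0.0063 by limma). It was 0.64 lower in the embryo than in the adult groups (log2 difference -0.64 ± 0.08, adjusted p = 4.4e-05 by limma).

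Cullins form the backbone of the largest family of ligases and are switched on by NEDD8. Of the 5 tested, cul1b and cul5a were called, both lower. Of all genes tested, 27.9% were lower in the acute and 14.5% in the long-term groups. cul1b read 7.41, 7.46 and 7.38 in the controls, 6.93 to 7.08 (median 7.02) in the embryo arrays and 7.28 to 7.68 (median 7.41) in the adult arrays. Its embryo arrays lay below all others, by 0.41 ± 0.09 against control (adjusted p = 0.0053 by limma, log2 difference -0.41), and its adult arrays overlapped the controls. cul5a fell by 0.71 ± 0.15 in the acute groups (adjusted p = 0.0021 by limma), a call lost without control replicate 2 (-0.70) or 3 (-0.55), and by 0.47 ± 0.15 in the long-term groups (adjusted p = 0.043 by limma), a call lost in 8 of 15 fits that left out 1 array (-0.63 to -0.31).

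F-box proteins bring substrates to cul1. Of the 20 tested, 8 were higher and 2 lower in the acute groups. In the long-term groups 5 were higher and 1 was lower. Of all genes tested, 14.8% were higher and 27.9% lower in the acute groups, and 7.50% and 14.5% in the long-term groups. The median F-box differences were 0.23 in the acute and 0.05 in the long-term groups. Without the 4 arrays, the only F-box calls kept were those of fbxl5 and fbxo9, higher in the acute groups. fbxw11b, a homologue of the receptor that recognises phosphorylated beta-catenin and the inhibitor of NF-kappa B, had the largest difference of the 107 genes in the long-term groups. It read 7.79, 9.28 and 8.65 in the controls, 6.86 to 7.43 (median 6.99) in the embryo arrays and 7.40 to 7.95 (median 7.67) in the adult arrays. The embryo arrays lay below all controls, and the adult arrays overlapped control replicate 1. It fell by 1.5 ± 0.22 in the long-term groups (2.83-fold, adjusted p = 0.00056 by limma) and by 0.91 ± 0.22 in the acute groups (adjusted p = 0.0046 by limma). The acute difference was -0.56 without control replicate 2, and the differences without the 4 arrays were -0.72 and -0.06, neither called.

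Among the probe sets read for the counts, that of fbxo25 had the largest rise in the long-term groups, with wide spread. It read 5.01, 4.09 and 4.29 in the controls, 5.14 to 6.44 (median 5.57) in the embryo arrays and 4.67 to 6.31 (median 5.86) in the adult arrays, where 1 array overlapped the controls. The rises were 1.19 ± 0.29 and 1.21 ± 0.29 (adjusted p = 0.011 and 0.0041 by limma), and the first call was lost without control replicate 2 (1.00) or 3 (1.1). Without the 4 arrays these rises were 0.64 and 0.83, neither called. A second probe set for fbxo25 rose by 0.69 ± 0.14 in each response, called in both with all 15 arrays. fbxl3a, whose mammalian homologue targets the cryptochromes of the circadian clock, read 6.76, 6.30 and 6.21 in the controls, 6.43 to 6.98 (median 6.76) in the embryo arrays and 6.83 to 7.63 (median 7.21) in the adult arrays. It rose by 0.80 ± 0.14 in the acute groups with no overlap (adjusted p = 0.00037 by limma).

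Of the 7 subunits of the COP9 signalosome, 4 were tested and 3 of these were lower in the acute groups, where 27.9% of all genes tested were lower. The COP9 signalosome takes NEDD8 off cullins, and cops5 is its catalytic subunit. At cops5 the arrays read 7.70, 7.94 and 8.10 in the controls, 7.40 to 7.83 (median 7.50) in the embryo arrays and 6.48 to 7.27 (median 6.71) in the adult arrays. The adult arrays lay below all others, by 1.11 ± 0.16 against control (log2 difference -1.11, adjusted p = 0.00011 by limma), and the embryo arrays overlapped the controls. A second probe set for cops5 gave -1.31 ± 0.17 (adjusted p = 5e-05) and the probe set with the lowest mean of 3 gave 0.17 ± 0.13 (adjusted p = 0.26, limma). In the long-term groups the first gave -0.38 ± 0.16 (adjusted p = 0.1), not called, the second was called lower at -0.58 ± 0.17 (adjusted p = 0.029), and the third gave 0.04 ± 0.13 (adjusted p = 0.83, limma).

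cops8 and cops2 were also lower in the acute groups and were not called in the long-term groups (0.01 ± 0.17 and 0.13 ± 0.11). cops8 fell by 0.62 ± 0.17 in the acute groups (adjusted p = 0.0097 by limma), a call lost without control replicate 3 (-0.53), and cops2 fell by 0.29 ± 0.11 (adjusted p = 0.041 by limma), a call lost in 7 of 15 fits that left out 1 array (-0.35 to -0.23). In the comparison of embryo with adult groups cops5, cops8 and cops2 were higher by 0.73 ± 0.13, 0.63 ± 0.14 and 0.42 ± 0.09 (adjusted p = 0.00082, 0.0031 and 0.0025 by limma), and each of these calls held in all 15 fits that left out 1 array. Without the 4 arrays of conflicting source name these differences were 0.81, 0.77 and 0.43, the last of them not called. The acute differences there were -0.99 for cops5, called, and -0.75 for cops8 and -0.17 for cops2, not called. The other subunit tested, cops9, differed by 0.06 ± 0.11 in the acute groups and was not called. cops3, cops4 and cops7a did not pass the filter. Without it cops3 was lower in both responses, with -0.47 ± 0.08 (adjusted p = 0.00072) for the acute and -0.38 ± 0.08 (adjusted p = 0.0077, limma) for the long-term difference. cops4 (-0.27 ± 0.08 acute, -0.24 ± 0.08 long-term) and cops7a (0.13 ± 0.09 and 0.03 ± 0.09) were called in neither.

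The deubiquitinases had 25 tested genes. In the acute groups 10 were lower and 4 higher, and in the long-term groups 6 were lower and 2 higher. Of all genes tested, 27.9% were lower and 14.8% higher in the acute groups. In the long-term groups these shares were 14.5% and 7.50%. The deubiquitinase shares higher were thus near those of all genes, and the shares lower were above them. These differences were not tested. Without the 4 arrays, the acute calls of usp1, usp33 and otulinb (lower) and of otud5a and usp44 (higher) were kept. In the long-term groups only the call of usp1 was kept. usp1 encodes an enzyme that in mammals takes ubiquitin off PCNA and FANCD2. It read 6.35, 6.21 and 6.45 in the controls, 5.34 to 5.62 (median 5.51) in the embryo arrays and 4.88 to 5.29 (median 5.11) in the adult arrays. The 3 sets of arrays did not overlap. It fell by 0.84 ± 0.09 in the long-term groups (1.79-fold, adjusted p = 7e-05 by limma) and by 1.23 ± 0.09 in the acute groups (2.34-fold, adjusted p = 6.2e-07 by limma), and the embryo groups were 0.38 ± 0.07 above the adult groups (adjusted p = 0.0013 by limma). All 3 calls held without the 4 arrays, at -0.85, -1.22 and 0.37, and in all 15 fits that left out 1 array.

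usp33 had the largest fall of the 107 genes in the acute groups. It read 6.44, 7.49 and 7.35 in the controls, 5.76 to 6.16 (median 5.86) in the embryo arrays and 5.45 to 5.70 (median 5.67) in the adult arrays. All irradiated arrays lay below all controls, of which replicate 1 was the nearest. It fell by 1.46 ± 0.18 in the acute (2.74-fold, adjusted p = 2.7e-05) and by 1.18 ± 0.18 in the long-term groups (2.27-fold, adjusted p = 0.00064, limma), and these were -0.80 (called) and -0.53 (not called) without the 4 arrays.

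Among the other deubiquitinases, otulinb, uchl3 and uchl5 were lower in the acute groups. otulinb, a homologue of the enzyme that cuts linear ubiquitin chains, read 7.01, 6.85 and 6.99 in the controls, 6.84 to 7.30 (median 7.13) in the embryo arrays and 6.01 to 6.38 (median 6.18) in the adult arrays. The adult arrays lay below all others, by 0.75 ± 0.10 against control (log2 difference -0.75, adjusted p = 4.2e-05 by limma), and by 0.93 without the 4 arrays (log2 difference -0.93, called). uchl5, a deubiquitinase of the proteasome, and uchl3, which trims the ends of ubiquitin and NEDD8 precursors, fell by 0.51 ± 0.13 and 0.56 ± 0.10 in the acute groups (adjusted p = 0.007 and 0.0007 by limma). Their long-term differences were -0.29 ± 0.13 and -0.23 ± 0.10, not called. Between embryo and adult groups uchl3 was called (0.32 ± 0.08, adjusted p = 0.0083) and uchl5 was not (0.22 ± 0.11, adjusted p = 0.13, limma).

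The higher deubiquitinases were led by otud5a and usp44. otud5a, a homologue of an enzyme that dampens interferon induction in mammals, read 6.51, 6.21 and 6.23 in the controls, 6.53 to 6.80 (median 6.63) in the embryo arrays and 7.12 to 7.38 (median 7.30) in the adult arrays. The 3 sets of arrays did not overlap, and it rose by 0.95 ± 0.10 in the acute groups (adjusted p = 5.6e-06 by limma). In the long-term groups its difference was 0.34 ± 0.10 (adjusted p = 0.023 by limma), a call lost without control replicate 2 (0.28) or 3 (0.29). usp44, a deubiquitinase of the mitotic checkpoint in human cells, rose by 0.74 ± 0.13 in the acute groups (adjusted p = 0.00046 by limma) and by 0.42 ± 0.13 in the long-term groups (adjusted p = 0.035 by limma), the second call lost in 5 of 15 fits that left out 1 array (0.34 to 0.47).

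**Figure D4:**
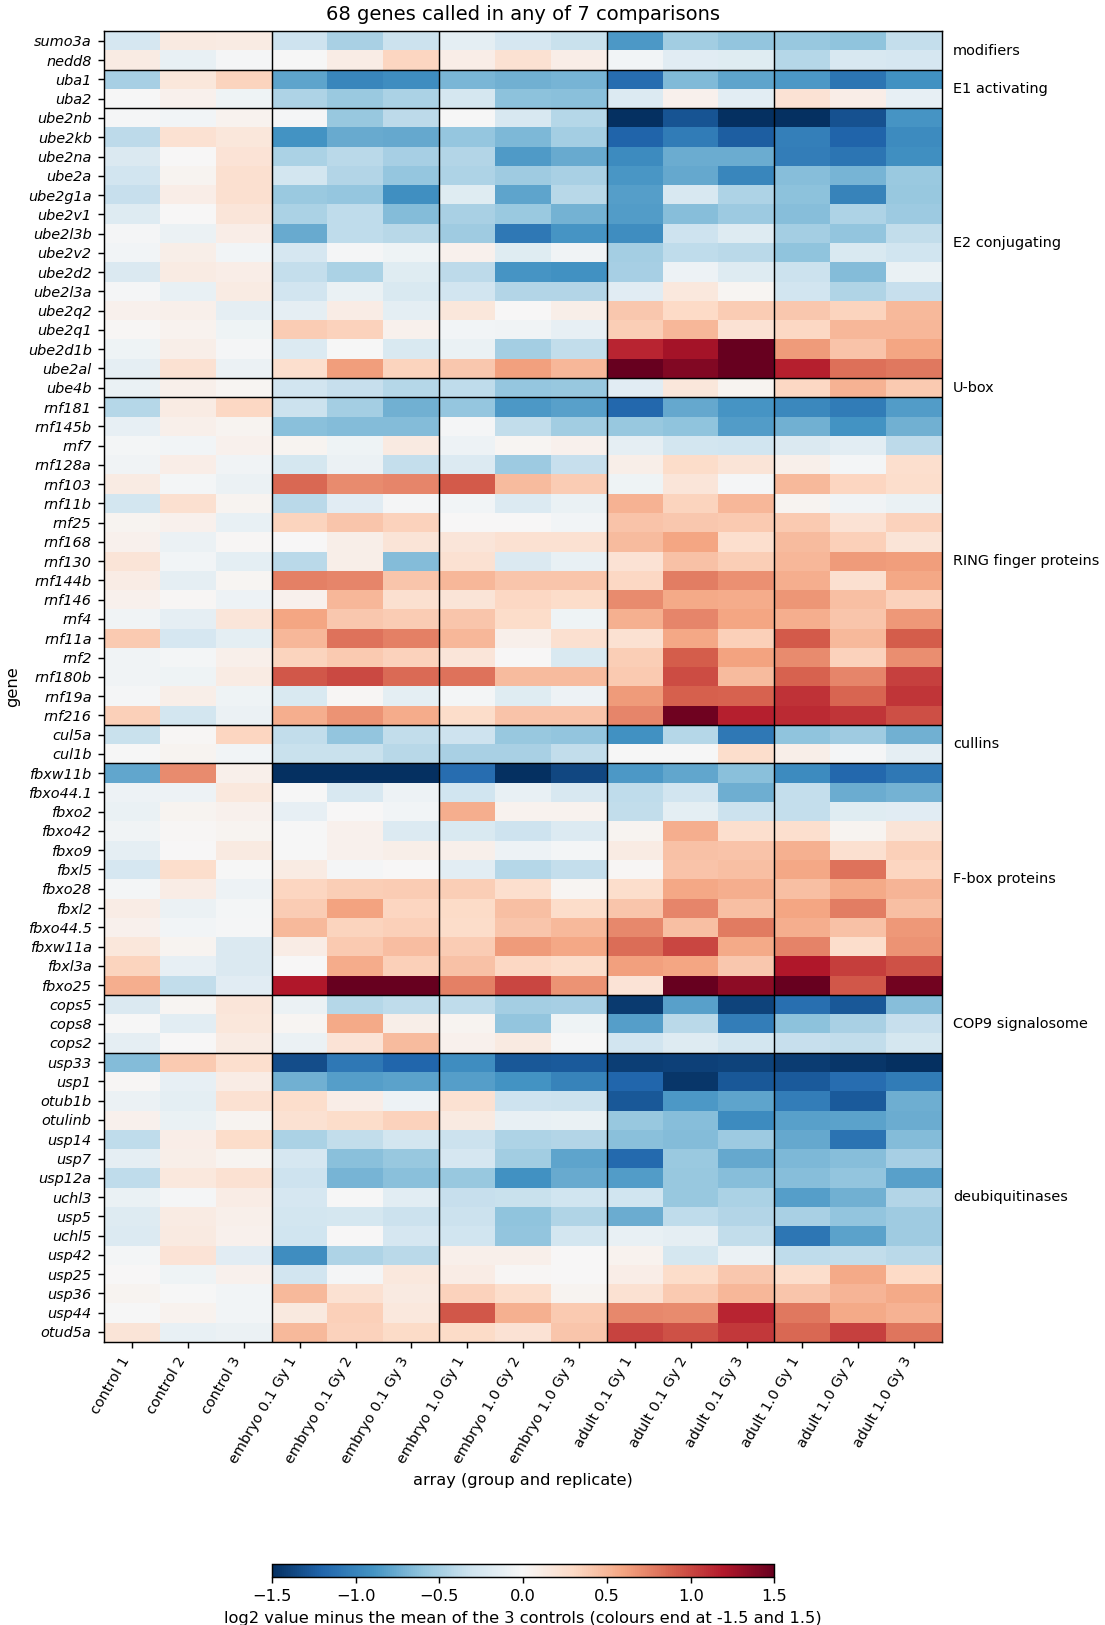
Log2 value minus the mean of the 3 controls (colour, red higher and blue lower, from -1.5 to 1.5) for the 68 ubiquitin genes called in any of 7 comparisons (rows, by class) in the 15 arrays (columns, by group). In uba1 and usp33 control replicate 1 is paler than the irradiated arrays but on the same side, and ube2nb, ube2d1b, otulinb and otud5a are strongest in the 6 adult arrays.

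Zebrafish carry many genes as pairs ending in a and b, left by a genome duplication in ancestors of bony fish. Members of a pair can share sequence, and cross-hybridization between them was not tested. In 2 pairs of like symbol the members were called in opposite directions in both responses with all 15 arrays. One was ube2a (lower) and ube2al (higher), which do not end in a and b and were set together after their values were seen. The other was fbxw11a and fbxw11b: fbxw11a read 5.66, 5.53 and 5.27 in the controls and 5.75 to 6.49 (median 6.20) in the adult arrays, and rose by 0.68 ± 0.14 in the acute groups with no overlap (adjusted p = 0.0013 by limma). In the long-term groups it rose by 0.43 ± 0.14 (adjusted p = 0.04 by limma), a call lost in 6 of 15 fits that left out 1 array (0.32 to 0.52). Without the 4 arrays the fbxw11a differences were 0.40 (acute) and 0.25 (long-term), not called. Those of fbxw11b were -0.06 and -0.72 and those of ube2a -0.52 and -0.18, in the same order, also not called. The ube2al differences were 1.59, called, and 0.60, not called. In ube2na and ube2nb both copies fell in the acute groups, and in ube2l3a and ube2l3b both fell in the long-term groups (-0.30 ± 0.10 and -0.68 ± 0.16), the first of them a call lost in 9 of 15 fits that left out 1 array (-0.35 to -0.23). In 6 further pairs 1 copy only was called in either comparison with control, and the difference between the copies was not tested. ube2d2 and ube2d2l, also of like symbol, were left out of these counts. Of them, ube2d2 was called lower in the long-term groups only, and ube2d2l was called in neither comparison with control.

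**Figure D5:**
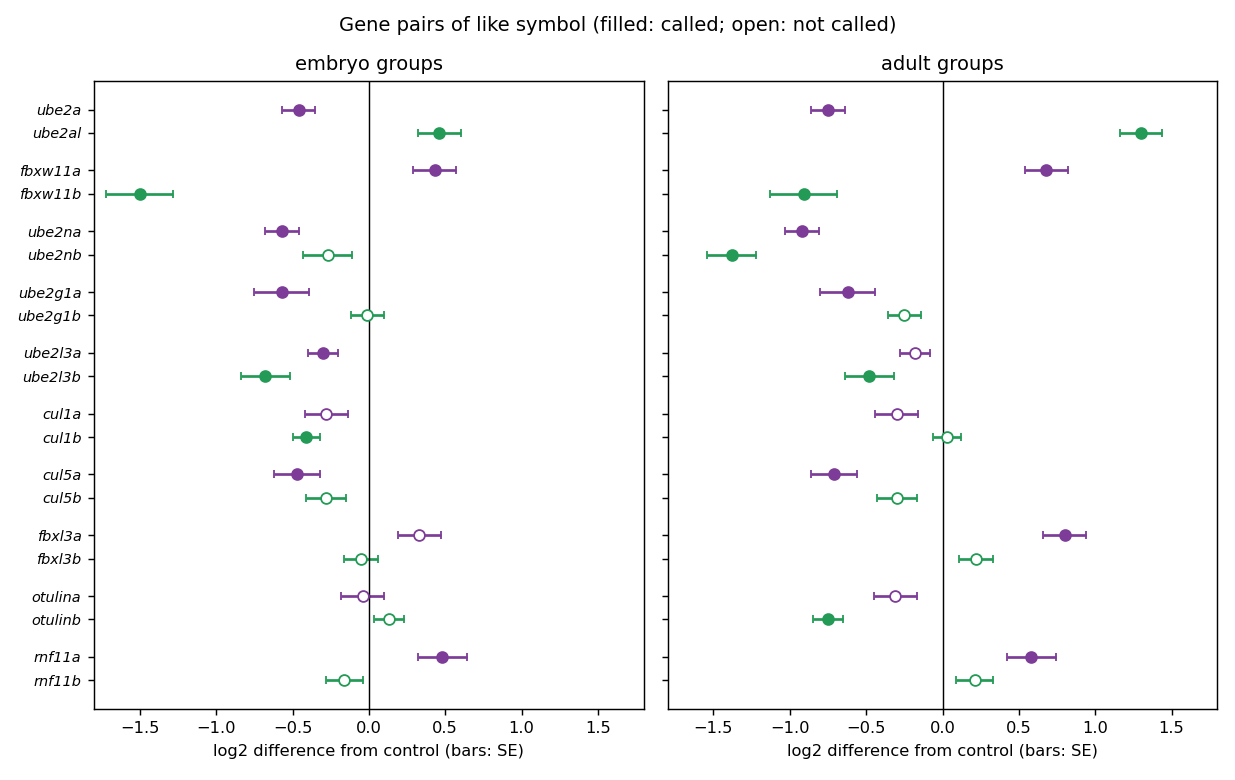
Log2 difference from control (points) with its SE (bars) for 10 pairs of genes of like symbol, in the embryo groups (left) and the adult groups (right), with filled points for called and open points for not called genes. ube2a with ube2al and fbxw11a with fbxw11b lie on opposite sides of zero in both panels.

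The dose made little difference that could be tested. Between 0.1 and 1.0 Gy, taken over embryo and adult groups together, 1 gene was called, against 0.475% of all genes. This was ube2d1b, higher at 0.1 Gy by 0.48 ± 0.10 (adjusted p = 0.047 by limma), and the call was lost in 13 of 15 fits that left out 1 array. In adults alone its 0.1 Gy arrays lay above its 1.0 Gy arrays by 0.78 ± 0.14, which missed the threshold (adjusted p = 0.058 by limma). Within the adult groups 0 genes were called by limma, against 0.110% of all genes, and 8 had an unadjusted p under 0.05. Within the embryo groups 1 gene was called, against 1.28% of all genes, and the interaction of time and dose called 1 gene, against 0.805%. Both calls were usp42, a deubiquitinase of p53 in human cells. It read 5.33, 5.80 and 5.86 after 0.1 Gy in embryos, 6.34, 6.34 and 6.27 after 1.0 Gy in embryos, 6.32, 6.0 and 6.17 after 0.1 Gy in adults and 5.88, 5.89 and 5.86 after 1.0 Gy in adults. The embryo difference was -0.65 ± 0.14 (adjusted p = 0.042 by limma), lost in 9 of 15 fits that left out 1 array (-0.75 to -0.48), and a second probe set for usp42 gave 0.04 (adjusted p = 0.92 by limma).

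Some members were left out by the filter on the range though their controls stood apart, since 3 of 15 arrays hardly widen an interquartile range. These were named after their values were seen. usp10, a deubiquitinase of p53 in human cells, read 7.23, 7.92 and 8.01 in the controls, 6.39 to 6.75 (median 6.70) in the embryo arrays and 6.43 to 6.78 (median 6.66) in the adult arrays. Without the filter its differences were -1.06 ± 0.14 and -1.1 ± 0.14 (adjusted p = 0.00042 and 6.3e-05 by limma). A second probe set for usp10 passed the filter and gave -0.61 ± 0.11 and -0.74 ± 0.11 (adjusted p = 0.0015 and 9e-05 by limma). uba3, the catalytic subunit of the NEDD8-activating enzyme, differed by -0.55 ± 0.11 and -0.79 ± 0.11 (adjusted p = 0.004 and 8.5e-05 by limma), and rnf20, a ligase for histone H2B, by -0.55 ± 0.10 and -0.66 ± 0.10 (adjusted p = 0.0027 and 0.00023 by limma). In all, 2 of the 45 genes were higher and 4 lower in both responses without the filter. Over all 8793 genes, that fit called 860 up and 1554 down in the acute comparison. For the long-term comparison its calls were 428 up and 787 down. These totals include genes that passed the filter, and the 45 genes were not tested against them. The calls among the 45 thus show nothing particular to the ubiquitin genes.

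Other genes of the pathway, whose symbols the rule did not take, were read from lists. To set beside their counts, 14.8% of all genes tested were higher and 27.9% lower in the acute groups. In the long-term groups 7.50% were higher and 14.5% lower, and between embryo and adult groups 23.1% were higher and 13.0% lower. Differences of the lists from these shares were not tested. Of 14 tested genes of free ubiquitin, ubiquitin-like proteins and adaptor proteins, 7 were higher and 5 lower in the acute groups. The long-term groups had 1 higher, the ubiquitin-like isg15, and 2 lower. ubb, a polyubiquitin gene induced by stress, rose by 1.15 ± 0.19 in the acute groups (adjusted p = 0.00029 by limma) and was 1.64 lower in the embryo than in the adult groups (log2 difference -1.64 ± 0.16, adjusted p = 6.1e-06). vcp, the ATPase that extracts ubiquitinated proteins, fell by 0.85 ± 0.11 in the long-term and by 0.49 ± 0.11 in the acute groups (adjusted p = 0.00022 and 0.0022 by limma). Without the 4 arrays the vcp differences were -0.65 and -0.24, not called, and the acute difference of ubb was 1.53, still called.

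Of 14 tested genes for SUMO, NEDD8 and cullin regulation, 6 were lower and 1 higher in the acute groups, in the long-term groups 2 were lower and 2 were higher, and 6 were higher and 0 lower in the embryo than in the adult groups. cand1, which exchanges substrate receptors on cullins, fell by 0.88 ± 0.13 in the acute groups (adjusted p = 0.0001 by limma), and nae1, the partner of uba3 in activating NEDD8, fell by 0.72 ± 0.11 (adjusted p = 0.00014 by limma). Neither was called in the long-term groups (-0.36 ± 0.13 and -0.21 ± 0.11). The 1 gene higher in the acute groups was ddb2, by 0.72, and it was also called higher in the long-term groups, by 0.88. These ddb2 differences were 0.24 and 0.48 without the 4 arrays, not called. Without the 4 arrays the acute differences of cand1 and nae1 were -0.88 and -0.65, both still called.

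Of 24 further ligases and substrate receptors, 8 were higher and 3 lower in the acute groups, and in the long-term groups 3 were higher and 3 were lower. spoplb, a cul3 adaptor, rose by 2.19 ± 0.27 in the acute groups (adjusted p = 2.6e-05) and mdm2, the ligase of p53 and a p53 target itself, by 0.62 ± 0.10 (adjusted p = 0.00021, limma). mdm2 was also called higher in the long-term groups, by 0.34, a call lost in 2 of 15 fits that left out 1 array (0.26 to 0.41). huwe1, a large HECT ligase, fell by 0.49 ± 0.09 in the acute and by 0.53 ± 0.09 in the long-term groups (adjusted p = 0.0009 and 0.0016 by limma). huwe1 was named after its values were seen, and other genes of this list had larger differences. Without the 4 arrays the huwe1 differences were -0.47 and -0.51, not called, and the acute differences of spoplb and mdm2 were 2.09 and 0.86, both still called. The long-term difference of mdm2 was 0.51 there, not called. Of 10 further deubiquitinases and related proteins, 3 were higher and 1 lower in the acute groups. In the long-term groups 0 were higher and 1 was lower. The lower gene was psmd7 in both. Of 11 subunits and activators of the anaphase-promoting complex, a ligase of the cell cycle, 2 were higher and 0 lower in the acute groups, and in the long-term groups 5 were higher and 0 were lower. anapc16 rose by 1.30 ± 0.10 and 0.62 ± 0.10, and fzr1a by 0.81 ± 0.12 and 0.46 ± 0.12. Without the 4 arrays these were 1.25 and 0.59 for anapc16, and 0.84 and 0.48 for fzr1a. In each gene the acute difference was still called there and the long-term difference was not. The second fzr1a call was lost in 1 of 15 fits that left out 1 array (0.38 to 0.52).

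In bulk tissue, fewer cells of a type and less RNA per cell cannot be told apart. None of the 9 hepatocyte markers tested was called by limma in either comparison with control, where 3 (long-term) and 4 (acute) had an unadjusted p under 0.05. The median difference of the 12 pancreas markers was 0.35 for the embryo groups and -0.65 for the adult groups, with 0 called and 0 under an unadjusted p of 0.05. That of the 4 intestine markers tested was -0.92 and -2.47, with 0 called and 1 and 3 under an unadjusted p of 0.05. In the acute groups 3 of 10 tested leukocyte markers, 2 of 10 biliary, stellate or endothelial markers and 1 of 9 erythrocyte markers were higher, and in the long-term groups 1 of 10 leukocyte markers, cd74a, was higher by 0.84 ± 0.23 (adjusted p = 0.017 by limma). Array means of the 12 leukocyte markers were 5.73 to 6.07 in the controls, 5.90 to 6.44 in the embryo arrays and 6.02 to 6.18 in the adult arrays. Those of the 8 intestine markers were 5.33 to 7.91 in the controls, 5.15 to 6.52 in the embryo arrays and 5.23 to 5.61 in the adult arrays, with the highest in control replicate 1. Those of the 15 muscle markers were 4.81 to 5.07 in the controls, 4.96 to 5.74 in the embryo 0.1 Gy arrays and 5.45 to 6.36 in the embryo 1.0 Gy arrays. In the adult arrays they ran from 5.01 and reached 7.35 in adult 1.0 Gy replicate 3. Their part in the differences of the ubiquitin genes was not tested.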

How the data were processed

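Liver RNA of 15 pools was read on the GeneChip Zebrafish Genome Array. The authors normalized the arrays by quantiles and summarized probe sets by RMA, and deposited log2 values, which were used as deposited. Of 15617 probe sets, 115 Affymetrix controls were left out, and 10795 of the rest had 1 gene symbol in the platform annotation. The design followed the study's methods: limma 3.58.1 in R 4.3.3, 5 group means over 15 arrays, probe sets with an interquartile range under 0.2 left out, Benjamini-Hochberg adjustment over the 8634 others. Group-by-group contrasts were those of time, dose, their interaction, and each response against control. The fit was tested on simulated data. Members and lists were chosen with earlier results of these data known. Named were up to 8 called genes a direction and comparison with no overlap between groups, all genes called by dose, small classes, up to 4 called genes of each other class, a and b pairs, and up to 6 genes a list, with exceptions marked. Alternatives changed the filter, the normalization, the call rule, the probe set, array weights, the replicate block and the arrays used. The number of arrays limits the precision. Sequences were not used here.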

Additional observations from a re-analysis of the deposited data

Results flagged for a closer look

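The dose difference of usp42 ran in opposite directions in the embryo and the adult groups. It was -0.65 ± 0.14 (0.1 minus 1.0 Gy, log2) in the embryo groups and 0.29 ± 0.14 in the adult groups, and the test of the difference itself, the interaction of time and dose, gave -0.47 ± 0.10 (adjusted p = 0.0496 by limma), on a scale that averages the embryo difference with the adult difference turned in sign. The call was lost in 12 of 15 fits that left out 1 array, where the value ran from -0.52 to -0.39, and a second probe set for usp42 was not called (adjusted p = 1.0 by limma).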

How the results depend on the processing

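Without control replicate 2 alone or control replicate 3 alone 14 long-term genes were called, and without control replicate 1 alone 34. Without both replicates 2 and 3, control replicate 1 is the only control left. There, a shift of the differences and the loss of replication cannot be told apart. Called genes in the long-term, acute and time comparisons were 36, 56 and 44. Leaving out 1 array gave 14 to 37, 43 to 60 and 34 to 46. They were 1, 17 and 28 without the 4 arrays of conflicting source name, and 2 and 20 (long-term and acute) without control replicates 2 and 3 together. With an interquartile range of at least 0.5, which tests 16 genes, they were 7, 14 and 14, and array weights gave 60 long-term calls. The other alternatives kept these counts within 1.5 times. With array medians subtracted, 7 long-term genes were higher and 22 lower, against 13 and 23. Kept in all 15 fits that left out 1 array were 12 of 36, 38 of 56 and 29 of 44 calls.

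The dose comparison called 0 to 1 genes with 1 array left out, 0 with no filter, medians subtracted, the 4 arrays or control replicates 2 and 3 left out, and 4 with array weights. The interaction called 0 to 1 with 1 array left out, 0 with no filter, the stricter filter, the 4 arrays left out or the second probe set, and 2 with weights. Dose within embryo groups called 0 to 1 with 1 array left out, 2 with no filter, 0 with the stricter filter, the 4 arrays left out or the second probe set, where usp42 turned to 0.04, and 3 with weights. Dose within adult groups called 0 to 2 with 1 array left out, and 1 after quantile normalization again or with weights. The cause was not tested.

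Replicate numbers do not pair the samples: deviations of same-numbered arrays correlated at -0.29 to 0.18 and of others at -0.23 to 0.27. With the replicate block, 24 of 36 long-term, 53 of 56 acute and 39 of 44 time calls were kept, and 0 genes were called by dose, interaction or dose within embryo groups.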

Other observations

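Some genes, named after their values were seen, had probe sets that gave different answers. For usp37 the probe set with the highest mean gave 0.34 ± 0.12 in the acute groups, not called, and another of its 4 probe sets gave -0.72 ± 0.10 (adjusted p = 6.8e-05 by limma). The long-term values were 0.25 ± 0.12 and -0.64 ± 0.10 (adjusted p = 0.14 and 0.00071 by limma). For rnf130 the second probe set was lower in the long-term groups by 0.47 (log2 difference -0.47 ± 0.11, adjusted p = 0.0097 by limma), while the first gave -0.18 ± 0.15, not called. Both rnf130 probe sets were lower in the embryo than in the adult groups, at -0.65 ± 0.12 and -0.70 ± 0.09. For fbxw2 the second probe set was called lower in the acute groups (-0.50 ± 0.13) and in the long-term groups (-0.44 ± 0.13), while the first gave -0.16 ± 0.12 and -0.25 ± 0.12, not called. Which parts of the transcripts these probe sets read is not given in the sources used here.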
